A study of Mus musculus with 18 samples.

Results

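Neural RNA-binding and splicing regulators were followed by 10 genes of the array's annotation, Ptbp1, Ptbp2, Nova1, Qk, Elavl2, Elavl3, Elavl4, Msi1, Msi2 and Lin28, out of 30869 distinct gene symbols. A gene's probes were those whose symbol equals its name, which gave 31 probes of 45281, from 1 probe for Qk and for Msi1 to 6 probes for Ptbp1 and for Nova1. ESD3 cells, a mouse embryonic stem cell line of strain 129s2/SvPas, were compared in an HPRT-knockdown and a control form. Knockdown cells carried a virus expressing an shRNA against HPRT, designed for the human gene, control cells carried the same kind of virus with an shRNA against luciferase, and both were selected with puromycin. RNA was taken from embryonic-stage (ES) cells on primary mouse embryo fibroblast feeders, from spherical neural masses (SNM) and after dopaminergic neuronal differentiation, here the neuronal stage. Each of the 6 conditions has 3 Illumina MouseWG-6 v2 arrays hybridised from 1 pool of RNA of independently replicated cultures, so the spread between arrays is technical, p-values measure that spread alone, and no spread between cultures was available.

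RNA-binding proteins of these families decide how a transcript is spliced, how long it lasts and whether it is translated. PTBP1, the polypyrimidine tract-binding protein of stem and progenitor cells, represses neuronal exons, among them one whose skipping keeps its neural paralogue PTBP2 low. NOVA1 and the neuronal Hu proteins ELAVL2, ELAVL3 and ELAVL4 (HuB, HuC and HuD) act in neurons, Musashi proteins in neural progenitors and Quaking (Qk) in myelinating glia. LIN28, a protein of pluripotent and early progenitor cells, binds the terminal loop of let-7 precursors through a GGAG motif and blocks the making of the mature microRNA.

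The let-7 sequences are shown because they are the known targets of LIN28, whose mRNA fell at both steps of differentiation in the knockdown cells. All are RefSeq sequences on GRCm38.p6, read from a table that held 11 let-7 hairpins, and microRNA levels were not analysed here. GGAG, searched on the strand of the RNA and set in capitals, occurred in 9 of the 11 hairpins and in 44.5% of all 1005 mouse hairpins of the table, so a match alone does not mark a let-7 hairpin. The let-7g and let-7i hairpins hold it, and the let-7b hairpin is shown as one without these letters.
let-7g hairpin (chr9:106178840-106178927, plus strand): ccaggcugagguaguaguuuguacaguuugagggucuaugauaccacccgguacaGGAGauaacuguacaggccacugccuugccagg
let-7i hairpin (chr10:122985640-122985724, minus strand): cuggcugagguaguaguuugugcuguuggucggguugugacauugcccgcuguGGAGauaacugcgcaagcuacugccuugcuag
let-7b hairpin (chr15:85707319-85707403, plus strand): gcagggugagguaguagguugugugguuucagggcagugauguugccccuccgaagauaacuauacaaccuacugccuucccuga

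The mature let-7 5p sequences of that table, 8 in number, all shared the seed GAGGUAG at bases 2 to 8, set in capitals in the sequences of let-7a, let-7g and let-7i.
let-7a-5p: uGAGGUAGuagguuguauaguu
let-7g-5p: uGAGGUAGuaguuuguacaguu
let-7i-5p: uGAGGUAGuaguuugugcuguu

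Promoters are shown for Elavl3 and Elavl4, whose mRNAs had the largest rises from the ES to the SNM stage among the 10 genes in both cell types. RefSeq's table held 19 start sites for 9 of the 10 genes (all but Msi1), and the 250 bases before each start on GRCm38.p6 were searched on both strands for an E-box (CAGCTG), a GC box (GGGCGG) and an octamer (ATGCAAAT). The E-box was in 4 of the 19 windows against 13% of 32851 mouse windows, the GC box in 11 of 19 against 32.7%, and the octamer in 0 of 19 against 1.60%. Several windows of a gene overlap, so these counts are not of independent sequences. Matches are set in capitals, and none overlapped another in the windows shown. A match is a description of letters and does not show that a factor binds.
Elavl3 (chr9:22052024-22052273, minus strand): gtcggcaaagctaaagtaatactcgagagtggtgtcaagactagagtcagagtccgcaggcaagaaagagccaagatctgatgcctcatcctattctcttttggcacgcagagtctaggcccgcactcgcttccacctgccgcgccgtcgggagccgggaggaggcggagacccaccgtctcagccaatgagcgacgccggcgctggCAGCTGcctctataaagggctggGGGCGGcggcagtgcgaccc
Elavl4, first listed start (chr4:110351912-110352161, minus strand): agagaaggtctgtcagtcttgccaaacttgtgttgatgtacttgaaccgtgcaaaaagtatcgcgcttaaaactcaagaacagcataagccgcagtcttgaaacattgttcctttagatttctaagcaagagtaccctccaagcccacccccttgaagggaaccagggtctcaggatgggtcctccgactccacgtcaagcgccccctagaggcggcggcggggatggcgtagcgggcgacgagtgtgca
Elavl4, second listed start (chr4:110287528-110287777, minus strand): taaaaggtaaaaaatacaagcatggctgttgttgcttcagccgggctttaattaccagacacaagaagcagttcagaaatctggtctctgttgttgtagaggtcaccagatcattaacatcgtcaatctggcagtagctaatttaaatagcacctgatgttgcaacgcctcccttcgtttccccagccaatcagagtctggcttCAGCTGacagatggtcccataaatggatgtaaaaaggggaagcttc

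The Elavl3 window held 1 E-box and 1 GC box, the second Elavl4 window 1 E-box, and the first Elavl4 window held none of these letters. In GC content they were 61.6%, 53.6% and 44%, in the order printed, against a median of 52.4% over all windows.

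Levels are log2 signals after background correction and quantile normalization. A probe is called detected on an array where its detection p-value is under 0.05. A gene is represented by its brightest probe, and levels are compared between conditions, never between genes. Calls of higher or lower needed both a change of at least 1.5-fold and, in limma with Benjamini-Hochberg adjustment over all probes tested, an adjusted p under 0.05. Between 18827 and 22202 probes were detected per array, and the number of arrays limits the precision of every value.

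Hprt1, the symbol of the knockdown's target, read 12.04, 12.07 and 12.00 on the control arrays and 8.14, 7.96 and 7.75 on the knockdown arrays at the ES stage. The knockdown lowered Hprt1 by 94.1% in ES, 70.5% in SNM and 95.4% in neuronal-stage RNA, with no overlap between arrays. The SNM knockdown arrays thus kept more Hprt1 signal, at a mean of 9.44, than the ES knockdown arrays at 7.95.

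Cell type markers differed between control and knockdown cells, by lists chosen with earlier results of these data known. Among neuronal-stage arrays the summed signal of 9 neuron markers was 7506 to 8038 in control cells and 1271 to 1293 in knockdown cells. Snap25 and Nefl were detected on no array of either, and Tubb3 on no knockdown array. Oligodendrocyte markers, 10 genes, summed to 3223 to 3396 in control and 67144 to 69727 in knockdown cells, and skeletal muscle markers, also 10 genes, to 65737 to 66025 in control and 152 to 258 in knockdown cells. Myod1, Myog, Ckm and Tnnt3 of the muscle list were detected on no neuronal-stage knockdown array, while all 10 muscle markers were detected on all 3 control arrays. The label neuronal thus names a culture stage whose control RNA also carried muscle markers and whose knockdown RNA also carried myelin markers. In such bulk RNA, fewer cells of a type and less RNA per cell cannot be told apart.

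**Figure D1:**
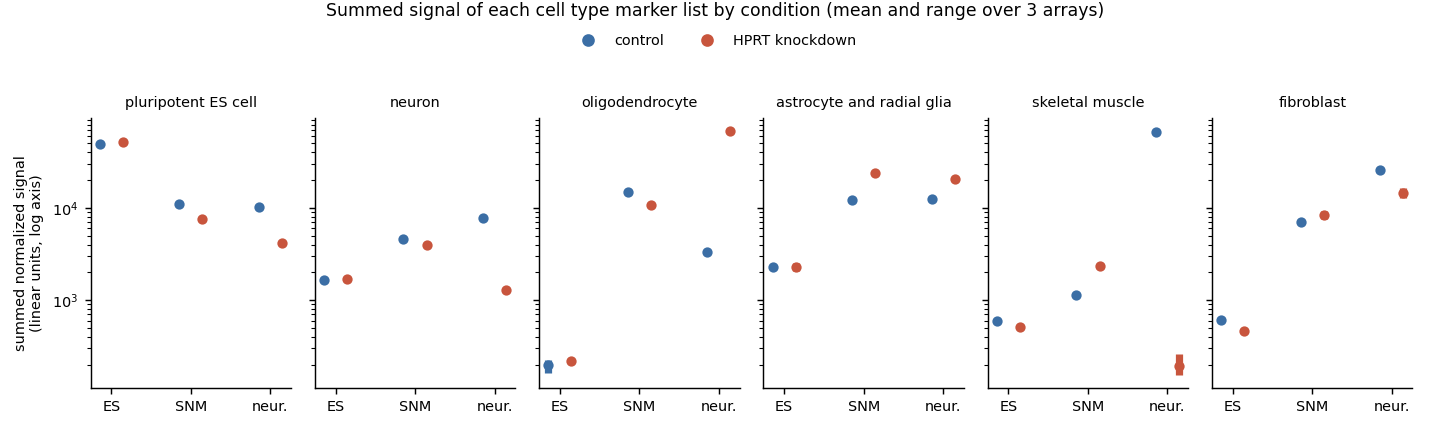
Summed normalized signal of 6 marker lists (linear units on a log axis) in each condition, with points for the mean and bars for the range over 3 arrays. Oligodendrocyte and skeletal muscle markers differ most between the cell types at the neuronal stage, with means of 3336 against 68597 and of 65900 against 191 in control and knockdown cells.

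Of the 10 genes, 8 were detected on all 3 arrays of at least 1 condition. Qk and Msi1 were detected on no array, with lowest detection p-values of 0.1 and 0.0994. The single Qk probe, for the regulator of myelin transcripts, stayed between 4.24 and 4.64 over 18 arrays, and the single Msi1 probe between 4.21 and 4.70. These levels were not well above background, so no change of either gene could be measured here, and the array says nothing of the Qk transcripts that this probe does not match. Of the detected genes, Ptbp1 and Lin28 went down along differentiation. Ptbp2 did so by 1 probe near background, called only from SNM to neuronal stage in control cells. Others went up (Elavl3, with Nova1 and Msi2 called higher by their brightest probes alone), and Elavl2 and Elavl4 ended far apart in the cell types.

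**Figure D2:**
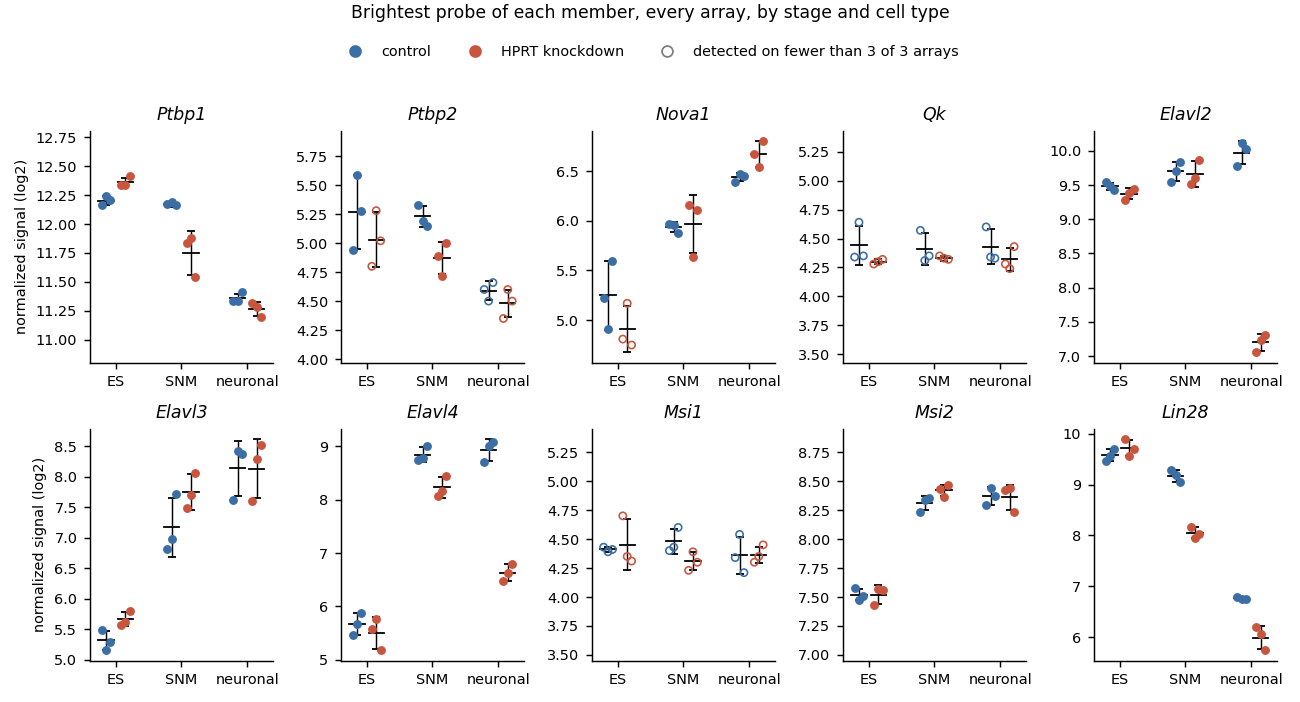
Normalized log2 signal of the brightest probe of each of the 10 genes on every array, by stage, with the mean and SD of 3 arrays; open circles mark conditions detected on fewer than 3 arrays. Lin28 runs from 9.72 in ES knockdown arrays to 5.99 in neuronal knockdown arrays, and Elavl2 and Elavl4 separate at the neuronal stage, at 9.97 against 7.20 and 8.93 against 6.63.

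Ptbp1, on chromosome 10, read 12.16, 12.24 and 12.21 on the control ES arrays, 12.17, 12.19 and 12.16 on the control SNM arrays and 11.34, 11.34 and 11.41 on the control neuronal arrays. In knockdown cells it read 12.34, 12.34 and 12.41, then 11.84, 11.88 and 11.54, then 11.32, 11.28 and 11.20. On this probe the control ES and SNM arrays overlapped, whereas every SNM knockdown array lay below every ES knockdown array.

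From SNM to neuronal stage Ptbp1 fell by 0.81 in control cells (SE 0.072, limma adjusted p = 7.12e-08), a 43% lower signal. From ES to SNM stage it fell by 0.61 in knockdown cells (SE 0.072, limma adjusted p = 8.11e-07), which is 1.53-fold, and left the call at -0.50 without the third SNM knockdown array. Between the cell types at the SNM stage the difference was -0.42 (95% interval -0.57 to -0.27, limma adjusted p = 0.000136), under the 1.5-fold limit, and the difference between that and the ES-stage effect was -0.58 (adjusted p = 0.000292), also under it on this probe. With 75th percentile scaling and no background correction the SNM-stage difference of Ptbp1 was called. In neuronal-stage RNA knockdown and control differed by -0.10 (95% interval -0.25 to 0.06).

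The other 5 Ptbp1 probes had a Pearson's r of 0.93 to 1.00 with the brightest one over the 6 condition means, as a description of values that share their arrays, but they differed from it in single steps. From ES to SNM stage in control cells Ptbp1 probes 2, 4, 5 and 6, numbered from the brightest, were lower by -0.32, -0.39, -0.31 and -0.54 (limma adjusted p from 0.000109 to 0.0403), each under 1.5-fold, and probe 3 by 0.00. The stage difference of the knockdown effect, SNM minus ES, was called for Ptbp1 probes 3, 4 and 5, at -0.67, -0.75 and -0.93, and probe 4 was also called lower in knockdown cells at the SNM stage, at -0.61. With the mean over probes that difference of Ptbp1 was -0.66 and called, as it was without scaling (-0.78), with 75th percentile scaling (-0.75) and on leaving out any of 6 single arrays (-0.59 to -0.64): the first or second knockdown ES array, the second control ES array, the first or second SNM knockdown array or the third control SNM array. The second brightest went from a mean of 11.77 in ES to 10.46 in neuronal control arrays and from 11.84 to 10.18 in knockdown arrays.

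Ptbp2, the neural paralogue, was near background on all its probes. Its brightest probe read 4.94, 5.59 and 5.28 in control ES, 5.33, 5.19 and 5.15 in control SNM and 4.60, 4.50 and 4.66 in control neuronal arrays, the last with 0 of 3 arrays detected. Ptbp2 was at least 1.43-fold lower in control cells at the neuronal than at the SNM stage (measured means 4.59 and 5.23, limma adjusted p = 0.00098). This call was lost without background correction, with an offset of 50 and on averaging the probes. The bound is the SNM mean against, on each neuronal array, the higher of the probe's own signal and the lowest signal among detected probes.

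Knockdown SNM arrays, at 4.89, 4.72 and 5.00, lay below the control SNM arrays, by -0.35 on average (limma adjusted p = 0.0464), which is under 1.5-fold. Of the other Ptbp2 probes, one was detected on 1 array of 18 and one on 0, so the gene rests on 1 dim probe whose annotation names a cDNA clone.

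Nova1, a splicing regulator of inhibitory synapse transcripts on chromosome 12, read 5.22, 4.91 and 5.6 in control ES, 5.97, 5.96 and 5.88 in control SNM and 6.39, 6.47 and 6.45 in control neuronal arrays. In knockdown cells it read 4.81, 5.17 and 4.75, with 1 of 3 arrays detected, then 6.16, 5.64 and 6.11, then 6.67, 6.54 and 6.80. On this probe the level stepped up at each stage in both cell types, and in each step the arrays did not overlap.

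Nova1 was higher at the SNM than at the ES stage by 0.69 in control cells (SE 0.16, limma adjusted p = 0.000977) and by 1.06 in knockdown cells (adjusted p = 1.44e-05), and higher at the neuronal than at the SNM stage by 0.70 in knockdown cells (adjusted p = 0.00129). In control cells the second step was 0.50 (adjusted p = 0.0124), under 1.5-fold. All 3 calls were lost without background correction and with the mean over probes. Without the second control ES array the first of them was lost, as was the knockdown neuronal call without the second SNM knockdown array. Knockdown and control did not differ past the threshold at any stage, and at the neuronal stage the 95% interval was -0.11 to 0.57. Of the other 5 Nova1 probes, one was detected on 12 of 18 arrays and the rest on 0 to 3. That second Nova1 probe did not share the rise, with differences of -0.05 and 0.04 from ES to SNM stage in control and knockdown cells and of -0.01 and 0.11 from SNM to neuronal stage. The fourth brightest, detected on 3 of 18 arrays, rose by 0.39 from SNM to neuronal stage in control cells (limma adjusted p = 5.23e-05), under 1.5-fold. At the neuronal stage it was lower in knockdown cells by -0.17 (limma adjusted p = 0.0287), whereas the brightest differed by 0.23. The calls of a rise thus rest on 1 probe.

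Elavl2, on chromosome 4, encodes HuB, which binds AU-rich elements and stabilises transcripts in early neurons. It read 9.54, 9.48 and 9.43 in control ES and 9.28, 9.38 and 9.44 in knockdown ES arrays. At the SNM stage it read 9.55, 9.70 and 9.84 in control and 9.51, 9.61 and 9.87 in knockdown arrays. Neuronal arrays read 9.78, 10.11 and 10.03 in control and 7.06, 7.23 and 7.31 in knockdown arrays. The 5 conditions other than the neuronal knockdown lay within 9.28 to 10.11, and only the neuronal knockdown arrays fell outside that range.

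Elavl2 was lower in knockdown than in control cells at the neuronal stage by -2.77 (SE 0.11, 95% interval -2.99 to -2.55, limma adjusted p = 1.63e-12), a signal 85.3% lower. At the SNM stage the difference was -0.03 (95% interval -0.26 to 0.19) and at the ES stage -0.12 (95% interval -0.34 to 0.11). The effect differed between the neuronal and SNM stages by -2.74 (SE 0.15, adjusted p = 2.79e-10). Its second probe gave means of 9.43 and 6.72 in neuronal control and knockdown arrays, and the pair had an r of 1.00 over the 6 condition means.

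Elavl4, also on chromosome 4, encodes HuD, which stabilises Gap43 and other transcripts of growing axons. It read 5.46, 5.67 and 5.88 in control ES and 5.58, 5.76 and 5.18 in knockdown ES arrays. At the SNM stage it read 8.75, 8.78 and 9.0 in control and 8.07, 8.16 and 8.45 in knockdown arrays. Neuronal arrays read 8.70, 9.0 and 9.09 in control and 6.48, 6.63 and 6.79 in knockdown arrays. Control cells reached their level at the SNM stage and kept it, while the neuronal knockdown arrays lay between the ES and the SNM arrays.

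From ES to SNM stage Elavl4 rose 8.99-fold in control cells (log2 difference 3.17, SE 0.15, limma adjusted p = 1.64e-11) and 6.58-fold in knockdown cells (2.72, adjusted p = 8.72e-11). In neuronal-stage RNA it was 79.6% lower in knockdown than in control cells (log2 difference -2.29, 95% interval -2.62 to -1.97, adjusted p = 2.37e-09). The knockdown effect differed between the neuronal and SNM stages by -1.68 (SE 0.22, adjusted p = 9.57e-06).

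The smaller difference of Elavl4 at the SNM stage, -0.61 (95% interval -0.94 to -0.29, limma adjusted p = 0.00332), is less firm. It lost the call on leaving out the first (-0.54) or the second knockdown array (-0.58) or the third control array (-0.54). The call was also lost without background correction, with an offset of 50, with a 2-fold limit and on averaging the probes. Over all alternatives the difference ranged from -0.73 to -0.19. The second brightest Elavl4 probe was lower in knockdown cells at the SNM stage too, with means of 7.66 in control and 7.07 in knockdown arrays, which overlapped. The third brightest Elavl4 probe went the other way there, with means of 5.76 in control and 6.21 in knockdown SNM arrays (limma adjusted p = 0.000597). In neuronal-stage RNA that probe was lower in knockdown cells too, at 5.34 against 6.20, and the second brightest at 5.64 against 7.67. The fourth probe was detected on 0 of 18 arrays.

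Elavl3, on chromosome 9, encodes HuC, the Hu protein of most mature neurons. It read 5.49, 5.17 and 5.30 in control ES, 6.81, 6.98 and 7.72 in control SNM and 7.62, 8.42 and 8.38 in control neuronal arrays. In knockdown cells it read 5.58, 5.63 and 5.80, then 7.48, 7.70 and 8.06, then 7.60, 8.29 and 8.52. The groups overlapped between the cell types at the SNM and neuronal stages, and in contrast to Elavl2 and Elavl4 no neuronal-stage separation was seen.

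Elavl3 rose from ES to SNM stage 3.61-fold in control cells (log2 difference 1.85, SE 0.26, limma adjusted p = 9.01e-06) and 4.22-fold in knockdown cells (2.08, adjusted p = 2.04e-06). From SNM to neuronal stage it rose by 0.97 in control cells (adjusted p = 0.00465), although the arrays overlapped and the methods' t-test did not call it, and by 0.39 in knockdown cells (adjusted p = 0.22). Knockdown minus control in neuronal-stage RNA was -0.01 (95% interval -0.57 to 0.55), and at the SNM stage 0.58 (95% interval 0.01 to 1.14, limma adjusted p = 0.0791). That SNM-stage difference was called only on leaving out the third control SNM array. The interval at the neuronal stage leaves out changes as large as those of Elavl2 and Elavl4, and a test of the genes against each other was not made because they are read by different probes. The second Elavl3 probe was detected on 0 of 18 arrays.

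**Figure D3:**
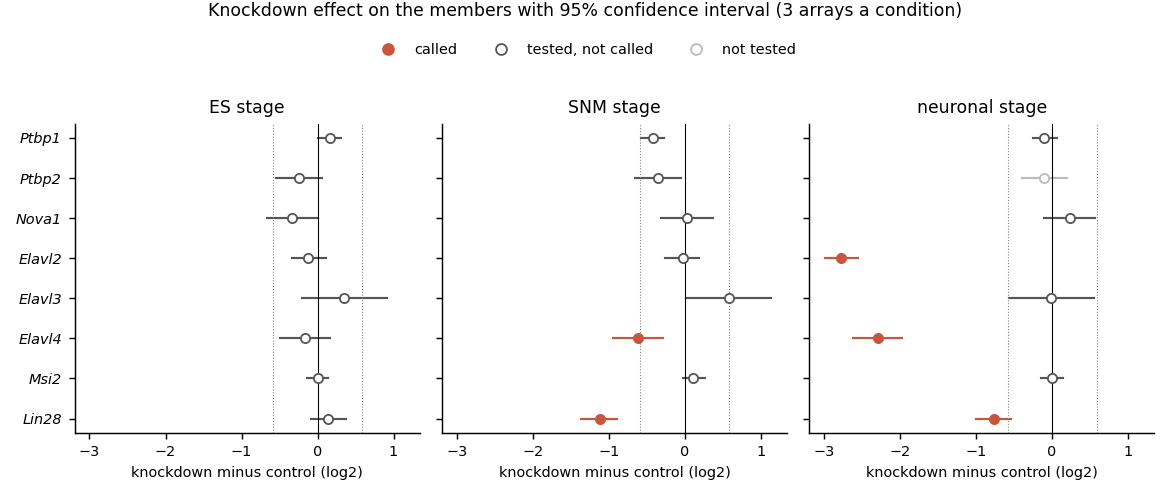
Knockdown minus control difference (log2) of the 8 detected genes at each stage, with 95% confidence intervals from limma over 3 arrays a condition; dotted lines mark 1.5-fold. No gene is called at the ES stage, Elavl4 and Lin28 are at the SNM stage, and Elavl2 (-2.77), Elavl4 (-2.29) and Lin28 (-0.77) are at the neuronal stage.

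At the neuronal stage the neuron markers were lower in knockdown cells, as were Elavl2 and Elavl4. Elavl3 was not, with means of 8.14 in control and 8.13 in knockdown arrays. Of 7 neuron markers tested at the neuronal stage, 6 were lower and 0 higher in knockdown cells, with a median difference of -1.97 against 0.01 over all tested probes, Dcx being lower by -1.97 and Stmn2 by -3.07. From the ES to the SNM stage, where Elavl3 and Elavl4 rose, the summed neuron markers went from a mean of 1646 to 4606 in control and from 1698 to 3924 in knockdown cells. Elavl2 had means of 9.48 and 9.70 at those stages in control and of 9.37 and 9.66 in knockdown cells. Between the cell types at the SNM stage, 1 of 7 tested neuron markers was higher and 2 were lower in knockdown cells. The part of cell makeup in the Hu gene values was not tested.

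Msi2, the Musashi protein of progenitor cells on chromosome 11, had 2 probes for the same transcript that moved in opposite directions. The brightest read 7.58, 7.47 and 7.51 in control ES, 8.23, 8.34 and 8.35 in control SNM and 8.29, 8.44 and 8.37 in control neuronal arrays. It rose from ES to SNM stage by 0.78 in control (SE 0.067, limma adjusted p = 2.07e-08) and by 0.90 in knockdown cells (adjusted p = 2.82e-09). The other probe, by its means, went from 8.13 to 7.43 in control and from 8.23 to 7.53 in knockdown cells, a fall by 0.69 (adjusted p = 1.8e-07) and by 0.71 (adjusted p = 1.17e-07). Over the 6 condition means the pair had an r of -0.91, so no direction can be given for the gene as a whole. Averaged over both probes, the ES to SNM change came to 0.04 for control and 0.10 for knockdown cells, and the call was lost.

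Between the cell types the brightest Msi2 probe differed by 0.00 in ES, 0.11 in SNM and 0.00 in neuronal-stage RNA, and the neuronal-stage 95% interval was -0.15 to 0.14. The other probe was lower in knockdown cells at the neuronal stage by -0.46 (limma adjusted p = 3.55e-05), which is under 1.5-fold.

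Lin28, listed as Lin28 by the array and as Lin28a by RefSeq, lies on chromosome 4. It read 9.46, 9.57 and 9.70 in control ES and 9.89, 9.57 and 9.70 in knockdown ES arrays. At the SNM stage it read 9.28, 9.19 and 9.05 in control and 8.16, 7.95 and 8.03 in knockdown arrays. Neuronal arrays read 6.79, 6.75 and 6.75 in control and 6.19, 6.05 and 5.74 in knockdown arrays. The cell types overlapped at the ES stage and did not at either later stage, and in both cell types the arrays of each stage lay below those of the stage before.

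At the SNM stage Lin28 was 54.1% lower in knockdown cells (log2 difference -1.12, SE 0.11, 95% interval -1.36 to -0.89, limma adjusted p = 3.71e-07), and this effect differed from that at the ES stage by -1.26 (SE 0.15, adjusted p = 9.61e-06). All 4 Lin28 probes were called lower there, with differences of -1.12, -1.09, -0.81 and -0.75 from the brightest to the dimmest. In control cells Lin28 fell by 0.41 from ES to SNM stage (adjusted p = 0.00316), under 1.5-fold, and by 2.41 from SNM to neuronal stage (adjusted p = 2e-11). In knockdown cells it fell by 1.67 (adjusted p = 5.24e-10) and then by 2.06 (adjusted p = 1.37e-10).

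At the neuronal stage Lin28 was lower in knockdown cells by -0.77 on its brightest probe (95% interval -1.0 to -0.54, limma adjusted p = 1.45e-05), while the second probe, detected on all arrays, had means of 5.38 in both cell types (difference 0.00, 95% interval -0.22 to 0.21). The other pair was detected on at most 1 of 3 arrays in either cell type. The neuronal-stage call thus rests on 1 probe, and it was lost without background correction, with an offset of 50 or on averaging a gene's probes.

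**Figure D4:**
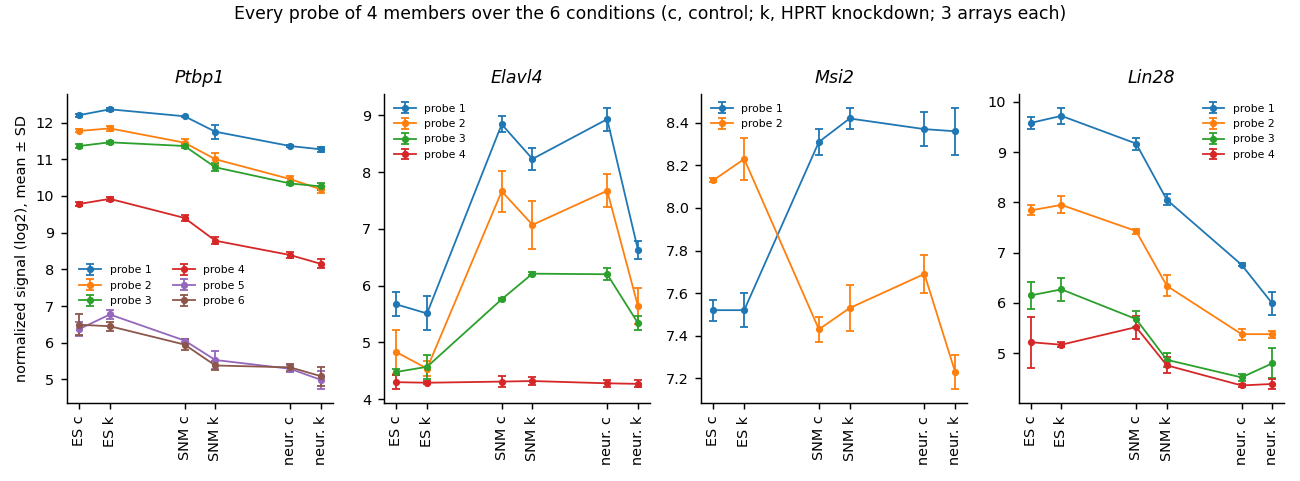
Mean and SD of 3 arrays (normalized log2 signal) in the 6 conditions for every probe of Ptbp1, Elavl4, Msi2 and Lin28, numbered from the brightest; lines join conditions only to guide the eye. The Ptbp1 probes have similar courses but differ in single steps. The Msi2 pair crosses between the ES and SNM stages (7.52 to 8.31 and 8.13 to 7.43 in control cells), and the second Lin28 probe has a mean of 5.38 in both neuronal conditions.

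At the SNM and neuronal stages pluripotency markers were lower in knockdown cells, as was Lin28, at the neuronal stage by its brightest probe alone. In control cells the steps between stages were unlike. From ES to SNM stage all 10 markers were lower (median -2.24), while the Lin28 mean went from 9.58 to 9.17. From SNM to neuronal stage 3 of 9 were lower (median -0.28), while the Lin28 mean went from 9.17 to 6.76. Of 9 tested at the SNM stage, 5 were lower and 0 higher in knockdown cells, and their summed signal had means of 11089 in control and 7538 in knockdown arrays. Later, at the neuronal stage, 8 of 9 were lower, with sums of 10142 and 4187, whereas at the ES stage 0 of 10 changed, with sums of 49516 and 51154. Fgf4 was detected on no array of either SNM condition or of the neuronal knockdown condition. Whether the Lin28 values go beyond this shift was not tested.

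Over the genes together, knockdown against control called 0 of 8 tested genes at the ES stage, where 1.68% of all tested probes were called, 0.516% higher and 1.17% lower. By limma, 1 of the 8 had an unadjusted p under 0.05 there (Ptbp1, a difference of 0.16), as did 4761 of 18411 probes, and the methods' t-tests, unpaired and paired, called 0 as well. At the SNM stage 2 of 8 were called, both lower, against 19.9% of all tested probes and 8.90% called lower. At the neuronal stage 3 of 7 were called, all lower, against 27.4% and 13.5% called lower. With so few genes these counts are descriptions, and the median difference of the tested genes was -0.06, -0.19 and -0.10 at the ES, SNM and neuronal stages, against 0.01, -0.04 and 0.01 over all tested probes.

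Between stages, 4 of 8 genes were higher and 0 lower at the SNM than at the ES stage in control cells (Elavl3 and Elavl4, with Nova1 and Msi2 by their brightest probes alone, the second Msi2 probe being lower), where 49.1% of all tested probes were called, 23.7% higher and 25.4% lower. In knockdown cells the same 4 genes were higher, Nova1 and Msi2 again by the brightest probe alone, and Ptbp1 and Lin28 lower, against 57.3% (26.4% higher and 30.9% lower). From SNM to neuronal stage, control cells had Elavl3 higher and Ptbp1, Ptbp2 and Lin28 lower, against 29.4% (14.3% higher and 15.1% lower). Knockdown cells had Nova1 higher and Elavl2, Elavl4 and Lin28 lower, against 28.6% (13.8% higher and 14.8% lower). The stage comparisons share the SNM arrays and each cell type's neighbouring comparisons are not independent. The difference of the knockdown effect was called for 1 of 8 genes between SNM and ES stages (Lin28, lower, against 21.3% of probes and 9.61% lower) and for 2 of 8 between neuronal and SNM stages (Elavl2 and Elavl4, lower, against 28.6% and 14.8% lower).

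Ordered by level, Lin28 was highest in ES cells, and its neighbours in the order overlapped only between the ES conditions. Ptbp1 had the same order of conditions, with overlap only between control ES and control SNM arrays. Elavl2 overlapped between every pair of neighbours except knockdown ES and neuronal knockdown. Elavl4 was highest in control neuronal and control SNM arrays, which overlapped. Elavl3 and Nova1 were highest in both neuronal conditions, which overlapped for Elavl3 and did not for Nova1, and Msi2's neighbours overlapped except at the step from the SNM and neuronal conditions to the ES conditions.

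Among other RNA-binding proteins, a list of 70 relatives had 62 genes with a probe. It holds paralogues of the genes above with hnRNP, SR, CELF, MBNL, RBFOX, IGF2BP and CPEB proteins among others. Of 59 tested at the SNM stage, 5 were higher and 8 lower in knockdown cells, where 11% of all tested probes were called higher and 8.90% lower, with a median of -0.21 against -0.04 over all probes. Lin28b, the paralogue of Lin28 that also blocks let-7, had means of 9.70 in control and 7.50 in knockdown arrays, a difference of -2.19 (limma adjusted p = 8.08e-14). Igf2bp1 and Igf2bp3, oncofetal mRNA-binding proteins, were lower by -1.37 and -1.13. Celf6 (Brunol6 on the array), a splicing regulator, was higher by 2.21, Mbnl2, a splicing regulator of differentiated cells, by 1.00 and Cpeb4, which acts on poly(A) tails, by 0.81.

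At the neuronal stage 2 of 59 relatives were higher and 18 lower, where 13.9% of all tested probes were called higher and 13.5% lower, with a median of -0.18 against 0.01. Rbfox1 (A2bp1 on the array), a splicing factor of neurons and of muscle, had the largest fall, with means of 10.38 in control and 6.20 in knockdown arrays, a difference of -4.17 (limma adjusted p = 5.5e-11). Igf2bp1 fell by 2.19 and Celf4 (Brunol4), a neuronal splicing and translation regulator, by 1.72. Cpeb1 rose by 1.51 and Tardbp by 0.61. At the ES stage 0 of 54 relatives were called, against 1.68% of all tested probes. Rbfox1's fall stood beside both the neuron markers and the skeletal muscle markers given above, and their part in it was not tested.

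Between stages, 11 relatives were higher and 14 lower at the SNM than at the ES stage in control cells, of 58 tested, against 23.7% and 25.4% of all probes, and 14 and 19 of 59 in knockdown cells, against 26.4% and 30.9%. From SNM to neuronal stage 8 were higher and 29 lower in control cells, of 59 tested, against 14.3% and 15.1% of all probes, and 4 higher and 26 lower in knockdown cells, against 13.8% and 14.8%, with medians of -0.54 and -0.49 against -0.07 and -0.02 over all probes. Ptbp1, Ptbp2 and Lin28 thus fell in control cells at a step where many relatives did too.

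**Figure D5:**
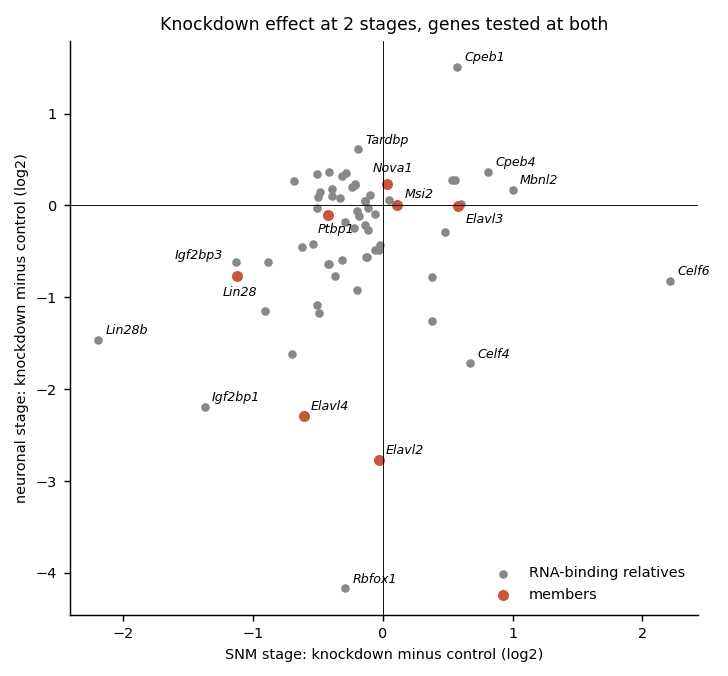
Knockdown minus control difference (log2) at the SNM stage (horizontal) and at the neuronal stage (vertical) for 59 RNA-binding relatives and 7 of the 10 genes, those tested at both stages. Elavl2 (-0.03 and -2.77) sits near 0 at the SNM stage and far below it at the neuronal stage, Lin28 and Lin28b are below 0 at both, and Rbfox1 is lowest at the neuronal stage.

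A list of 12 known RNA targets of these proteins was read as transcript level, since the probes do not measure exon use. Of 12 tested at the SNM stage, 2 were higher and 4 lower in knockdown cells, against 11% and 8.90% of all probes. Agrn and Dlg4 were higher by 0.81 and 0.71, agrin being spliced by NOVA and PSD-95 (Dlg4) by the PTB proteins. Mag and Mbp, myelin transcripts bound by Quaking, were lower by -2.21 and -1.88, and Hmga2, a let-7 target, by -0.81 (named after its value was seen). At the neuronal stage 4 of 12 were higher and 1 lower, against 13.9% and 13.5%. Mag and Mbp were then higher by 6.57 and 5.93, and Nrcam, also named after its value was seen, by 1.49. Mag and Mbp are also in the oligodendrocyte list, of which all 10 were higher in knockdown cells at the neuronal stage, and Qk itself was not measurable.

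The genes whose 6 condition means ran most like each gene's are given as descriptions, over 6 means that share their arrays. They were Narg1l, 3300001G02Rik and Ipo8 for Ptbp1 (r of 0.9981, 0.998 and 0.9979) and Cenpj, Smarca5 and Nbn for Ptbp2 (0.9933, 0.9907 and 0.9871). For Nova1 they were Cd44, Wnt5b and Arfgap3 (0.9963, 0.9962 and 0.9958). For Elavl2 they were Fmnl3, Trim37 and Dnajc15 (0.9879, 0.9823 and 0.9809), and for Elavl3 Ddx25, Nicn1 and Rgs17 (0.999, 0.9987 and 0.9978). Elavl4 ran most like Thsd2, Slc17a6 and Lhx1 (0.9981, 0.9967 and 0.9956), of which Slc17a6, the vesicular glutamate transporter VGLUT2, had means of 9.62 in control and 5.88 in knockdown neuronal arrays, and Lhx1, a homeodomain factor, 9.15 and 5.83. For Msi2 they were Nt5m, Cep170 and Ctnnd2 (0.9997, 0.9997 and 0.9996), by its brightest probe. Lin28 ran most like F730047E07Rik, Nr6a1 and Ccne2 (0.9986, 0.9984 and 0.998), and Nr6a1, an orphan nuclear receptor of embryonic cells, had means of 9.24 in control and 8.41 in knockdown SNM arrays. Among the detected genes, by their brightest probes, r was highest for Ptbp1 with Lin28 (0.99) and lowest for Nova1 with Ptbp1 and with Lin28 (-0.92 each). It was 0.93 for Ptbp1 with the dim Ptbp2 probe and 0.38 for Elavl2 with Elavl4.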

How the data were processed

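Total RNA of 6 conditions, each pooled from replicate cultures, was read on 18 arrays of the Illumina MouseWG-6 v2 type. The authors deposited, for each probe and array, a signal intensity averaged over beads with no background subtraction or normalization, and a detection p-value. Array by array, the deposited signals followed their own detection p-values best on 18 of 18 arrays, and 0 pairs of arrays held identical values. Conditions and array numbers came from the sample titles. A second deposited table gave the probe annotation only. Its 72 columns of per-sample values could not be paired with samples and were not used. Genes carry the array's symbols, chromosomes are the annotation's, and its genome build is not given in the sources used here.

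Signals were corrected with limma 3.58.1 (R 4.3.3) by neqc with an offset of 16, quantile-normalized and log2-transformed. One limma fit over 18 arrays held all 6 conditions. Tests took the probes that every array of 1 or more of the conditions compared detected (p-value under 0.05) and were two-sided, with Benjamini-Hochberg adjustment over all of them, and probes were called at an adjusted p under 0.05 and 1.5-fold. Standard errors and intervals (95%) are limma's. The script was tested on simulated data with known changes. Summed marker signals are linear, with the offset taken off.

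The genes, lists and tests were chosen with earlier results of these data known. The rule for naming was Hprt1, the 10 genes with all their probes, from the lists of relatives and RNA targets the 3 largest called rises and falls at the SNM and neuronal stages, and for each gene the 3 others with the highest r. Some RNA targets that this rule would name are not reported here. The main tests did not pair arrays by their number. Whether same-numbered arrays run together was described by correlations of array deviations, with a limit of 0.1. All 3 correlations were over it in 2 of the 7 comparisons of 2 conditions. They were 0.486, 0.108 and 0.489 for knockdown against control at the SNM stage. For neuronal against SNM stage in knockdown cells they were 0.522, 0.139 and 0.511. All 3 were also above 0, but not all over that limit, for knockdown against control at the neuronal stage (0.605, 0.0938 and 0.325) and for SNM against ES stage in knockdown cells (0.308, 0.0618 and 0.218). The labels do not say that a number marks a batch. Alternatives were other background corrections, scalings, offsets, fold and detection limits, the mean over probes, the array number as a block, fewer arrays in the fit, the methods' t-tests and leaving out each array.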

Additional observations from a re-analysis of the deposited data

Results flagged for a closer look

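In 3 cases the effect of the knockdown differed between stages by the test of the difference itself. For Lin28 knockdown minus control was 0.14 on the log2 scale at the ES stage, where the arrays overlapped, and -1.12 at the SNM stage, where every knockdown array lay below every control array, a difference of -1.26 (limma adjusted p = 9.61e-06). For Elavl2 it was -0.03 at the SNM and -2.77 at the neuronal stage, a difference of -2.74 (limma adjusted p = 2.79e-10). For Elavl4 it was -0.61 and -2.29, a difference of -1.68 (limma adjusted p = 9.57e-06), with every neuronal knockdown array below every control array for both Elavl genes.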

How the results depend on the processing

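Of 71 tested values of the genes, 26 were called. Of these, 15 kept the call under every alternative run, 11 lost it under at least 1, and 0 changed sign. With the array number as a replicate block the counts of called members, in the order of the 9 comparisons, were 0, 2, 3, 4, 6, 4, 4, 1 and 2, the same as without it. The cause of the following shifts was not tested beyond what each setting does.

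For knockdown against control at the SNM stage, 2 members were called, and 1 with quantile normalization but no background correction, an offset of 50, a 2-fold limit or the mean over probes, against 4 with no minimum change and 1 to 2 on leaving out an array. The 2 called were not always Elavl4 and Lin28. With 75th percentile scaling they were Ptbp1 and Lin28, and without the third control SNM array Elavl3 and Lin28. From ES to SNM stage in control cells 4 members became 2 with a 2-fold limit or the mean over probes, and from SNM to neuronal stage in control cells 4 became 1 and 2. For the SNM minus ES difference, 1 member (Lin28) became 2 with 75th percentile scaling, no scaling, no minimum change or the mean over probes, Ptbp1 being the one gained, and 1 to 2 on leaving out an array, where the one gained was Ptbp1 or, without the third knockdown ES array, Elavl4.

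Values that changed sign were all uncalled. With the mean over probes these were Nova1 (knockdown against control, neuronal) at -0.03 and its neuronal minus SNM difference at -0.06, Elavl3 (knockdown against control, neuronal) at 0.04 and Ptbp2 (SNM against ES, control) at 0.03. Without scaling, Ptbp1 and Ptbp2 (SNM against ES, control) were at 0.01 and 0.22, Ptbp2 in knockdown cells at 0.06 and the Elavl2 SNM minus ES difference at -0.04. With 75th percentile scaling, Elavl3 (neuronal) was at 0.01 and that Elavl2 difference at -0.03. On leaving out 1 array, the knockdown effect at the SNM stage ranged from -0.06 to 0.20 for Nova1 and from -0.14 to 0.04 for Elavl2, and that of Elavl3 at the neuronal stage from -0.27 to 0.26. Ptbp2 (SNM against ES, control) ranged from -0.21 to 0.11, Msi2 (neuronal against SNM, knockdown) from -0.09 to 0.01, and the SNM minus ES differences of Ptbp2 and Elavl2 from -0.27 to 0.05 and from -0.02 to 0.16.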
